A study of Mus musculus and Homo sapiens
Mus musculus with 12 samples.

Results

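Fam107b, Myo10, Hpcal1, Aff1, Snx4, Gm11867, Matn2 and Atp2b4 are 8 of the 34496 genes counted in mouse brain nuclei by snHH-seq, a droplet method that reads total RNA of single nuclei with random reverse transcription primers. They were chosen because their summed counts differed between frozen and fresh brain in earlier fits of the same 7 libraries, with nuclei rich in kidney transcripts counted in. Their frozen against fresh differences are therefore given below as descriptions, with no p-value, and what passed a threshold is only counted beside the share of all genes. All 8 were counted in every library and all 8 passed the filter on low counts, as did 18852 genes in total.

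The brains came from wild-type male C57BL/6J mice aged 6 to 8 weeks. Tissue was used fresh or after freezing, and reverse transcription used random primers either with a cell barcode of their own (preindex) or without one (no preindex). There were 2 fresh and 2 frozen libraries without preindex, and 1 fresh and 2 frozen libraries with preindex. The question of the design is how storage and the preindex step alter the measured transcriptome. The labels do not say whether the libraries of a group came from separate animals, so a p-value here measures the spread between libraries, which may be technical. For 4 of the 7 libraries the primer named in the sample title differs from the one in the treatment label. The titles were used, and the deposited cell barcodes had 30 bases in the libraries titled without preindex and 40 bases in those titled with it.

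The unit counted was the UFI, a unique fragment identifier that marks 1 captured fragment. The libraries held 700 to 3100 nuclei and 8605214 to 42439731 UFIs, with a median of 9011.5 to 27543 UFIs per nucleus. Without preindex the median was 21127 and 27543 in the fresh and 10187 and 15385 in the frozen libraries. With preindex it was 9011.5 in the fresh and 9927.5 and 14016.5 in the frozen libraries. Depth thus went with storage, in opposite directions under the primers. Nuclei with at least 15 UFIs per 10000 on Slc34a1, Lrp2, Slc12a1 and Slc12a3 together, which are kidney tubule transport genes, numbered 452 of 11198. All of them lay in the frozen preindex libraries, where they made up 10.9% and 10.1% of nuclei, and a count of 0 allows a share of up to 0.0968% to 0.429% in the other 5. The lowest value inside this limit was 16.2 per 10000 and the highest outside was 14.3. Without them 10746 nuclei remained, and levels below are CPM, UFIs per 1000000 UFIs of the remaining nuclei, unless stated otherwise. A further 20 nuclei of the fresh preindex library carried liver transcripts and were kept. Cell barcodes were shared between libraries in 32 cases over all pairs, at most 10 for 1 pair.

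The 8 genes have unrelated roles. Myo10 encodes an unconventional myosin that walks to the tips of filopodia, and Fam107b a small protein related to the stress-responsive actin regulator Fam107a. Hpcal1 encodes a neuronal calcium sensor of the visinin-like group, and Aff1 a scaffold of the super elongation complex, which releases paused RNA polymerase II. Snx4 encodes a sorting nexin that returns cargo from endosomes, Matn2 a secreted matrix protein of the matrilin family, Atp2b4 a plasma membrane pump that expels calcium from the cell, and Gm11867 is annotated as a non-coding processed transcript. In nuclei most RNA of long genes is intronic precursor, and counting over whole genes, as was done here, includes it. Purkinje neurons, which recur below, are the large output neurons of the cerebellar cortex, and their calcium handling genes are among their known markers.

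In GRCm38 (GENCODE) the 8 genes lie at chr2:3570488-3782142 (Fam107b, plus strand), chr15:25622525-25813673 (Myo10, plus), chr12:17690856-17791933 (Hpcal1, plus), chr5:103692374-103855322 (Aff1, plus), chr16:33251442-33300269 (Snx4, plus), chr4:18407349-18891842 (Gm11867, plus), chr15:34306677-34436273 (Matn2, plus) and chr1:133699457-133801041 (Atp2b4, minus). Gm11867 overlaps the protein-coding gene Cnbd1 on the opposite strand, which was counted at 1.89 to 3.72 CPM, so reads of the pair can be told apart only if counting used strand. Matn2 contains 9430069I07Rik on the opposite strand, with at most 0.136 CPM in any library.

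Promoter windows of the 4 genes that stood higher in frozen brain are shown because these genes shared their highest class of brain nuclei. That shared class is not independent of how the genes were chosen, as given below. RefSeq (GRCm38.p6) gives windows of 250 bases before to 50 bases after a start for 6 of the 8 genes. Capitals mark GGGCGTG, a motif picked after these sequences had been read and searched on both strands, so its share among all promoters describes the letters and tests nothing. The windows are chr2:3713208-3713507 for Fam107b, chr15:25622300-25622599 for Myo10, chr12:17690559-17690858 for Hpcal1 and chr5:103753912-103754211 for Aff1, all on the plus strand.
Fam107b: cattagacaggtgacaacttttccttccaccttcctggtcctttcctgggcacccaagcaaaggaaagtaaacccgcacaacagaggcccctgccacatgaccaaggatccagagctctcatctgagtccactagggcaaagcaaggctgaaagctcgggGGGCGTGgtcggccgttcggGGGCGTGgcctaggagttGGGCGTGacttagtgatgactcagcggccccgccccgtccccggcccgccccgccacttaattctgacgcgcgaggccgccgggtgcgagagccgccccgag
Myo10: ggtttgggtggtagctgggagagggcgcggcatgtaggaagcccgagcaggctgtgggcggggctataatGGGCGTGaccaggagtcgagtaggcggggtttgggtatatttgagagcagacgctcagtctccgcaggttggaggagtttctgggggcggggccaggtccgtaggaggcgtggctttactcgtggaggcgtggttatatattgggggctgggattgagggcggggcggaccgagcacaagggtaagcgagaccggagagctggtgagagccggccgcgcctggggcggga
Hpcal1: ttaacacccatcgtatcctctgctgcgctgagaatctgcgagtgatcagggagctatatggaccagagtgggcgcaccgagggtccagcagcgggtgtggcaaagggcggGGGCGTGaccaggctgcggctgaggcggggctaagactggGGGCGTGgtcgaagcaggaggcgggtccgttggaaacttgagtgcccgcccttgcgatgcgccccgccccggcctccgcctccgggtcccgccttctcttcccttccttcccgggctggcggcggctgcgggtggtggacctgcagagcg
Aff1: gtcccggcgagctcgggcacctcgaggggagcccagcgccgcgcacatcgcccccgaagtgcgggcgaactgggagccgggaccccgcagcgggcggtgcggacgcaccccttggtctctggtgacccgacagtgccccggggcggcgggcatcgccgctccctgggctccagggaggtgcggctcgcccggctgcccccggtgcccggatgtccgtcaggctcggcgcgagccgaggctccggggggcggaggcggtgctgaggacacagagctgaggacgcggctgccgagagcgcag
The Fam107b window holds GGGCGTG 3 times, the Hpcal1 window 2 times, the Myo10 window 1 time and the Aff1 window 0 times, as do the windows of Snx4 and Atp2b4 and further RefSeq windows of Myo10 and Aff1 that are not shown. A second motif, AGGTCA, was searched the same way and found in 0 windows of these genes, against 16.3% of all windows. Of 32851 mouse promoter windows of the same length, 8.44% hold GGGCGTG and 1.39% hold it 2 or more times. Because counts covered the whole gene, they do not show which start was used.

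Fam107b stood higher in the frozen libraries without preindex and hardly higher with it. Its level was 14.8 and 15.6 in the fresh and 49.4 and 38.0 in the frozen libraries without preindex, and 8.65 in the fresh and 9.75 and 11.7 in the frozen libraries with preindex. The 2 frozen libraries without preindex stood apart from the other 5, and the frozen and fresh groups overlapped over all 7. The 4 frozen libraries averaged 27.2 ± 19.6 (SD) and the 3 fresh ones 13.01 ± 3.79 (SD), a log2 fold change of 1.11 ± 0.22 (SE) with primer in the fit.

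Myo10 followed the same order. It was counted at 45.2 and 43.6 (fresh) and 86.5 and 82.1 (frozen) without preindex, and at 29.6 (fresh), 40.1 and 44.3 (frozen) with it. Frozen was above fresh within each primer, by a ratio of 1.90 without preindex and 1.43 with it, and the log2 fold change was 0.79 ± 0.09 (SE).

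Hpcal1 was also above fresh within each primer. Its level was 37.7 and 39.7 (fresh) and 74.4 and 65.1 (frozen) without preindex, against 27.8 (fresh), 33.2 and 36.5 (frozen) with it. The ratios were 1.80 and 1.25, and the log2 fold change was 0.67 ± 0.11 (SE).

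Aff1 was the gene whose direction differed by primer. Without preindex it was at 34.1 and 39.2 in fresh and at 60.2 and 60.4 in frozen brain, and with preindex at 30.3 in fresh and at 28.3 and 26.3 in frozen brain. The log2 fold change over both primers was 0.39 ± 0.15 (SE).

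Snx4 was lower in all 4 frozen libraries than in all 3 fresh ones. It stood at 54.8 and 61.2 (fresh) and 31.5 and 35.1 (frozen) without preindex, and at 92.2 (fresh), 35.3 and 34.6 (frozen) with it. The frozen libraries differed little among themselves, with a mean of 34.1 ± 1.79 (SD, n = 4), while the fresh preindex library was the highest of all and widened the fresh spread to 69.4 ± 19.99 (SD, n = 3). The log2 fold change was -1.04 ± 0.11 (SE).

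Gm11867 had nearly the same ratio under both primers. Its level was 22.4, 24.6 and 24.0 in the fresh libraries and 13.7, 12.6, 12.7 and 13.3 in the frozen ones, a ratio of 0.560 without preindex and 0.541 with it. The groups did not overlap, and the log2 fold change was -0.84 ± 0.07 (SE).

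Matn2 and Atp2b4 were lower in frozen brain by smaller amounts. Matn2 was at 33.3, 34.7 and 39.5 in the fresh and at 23.6, 22.9, 28.8 and 30.003 in the frozen libraries, with a log2 fold change of -0.46 ± 0.06 (SE). Atp2b4 was at 206, 208 and 192 in the fresh and at 149, 153, 154 and 160.0 in the frozen libraries, with a log2 fold change of -0.35 ± 0.04 (SE). Neither gene overlapped between the groups.

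**Figure D1:**
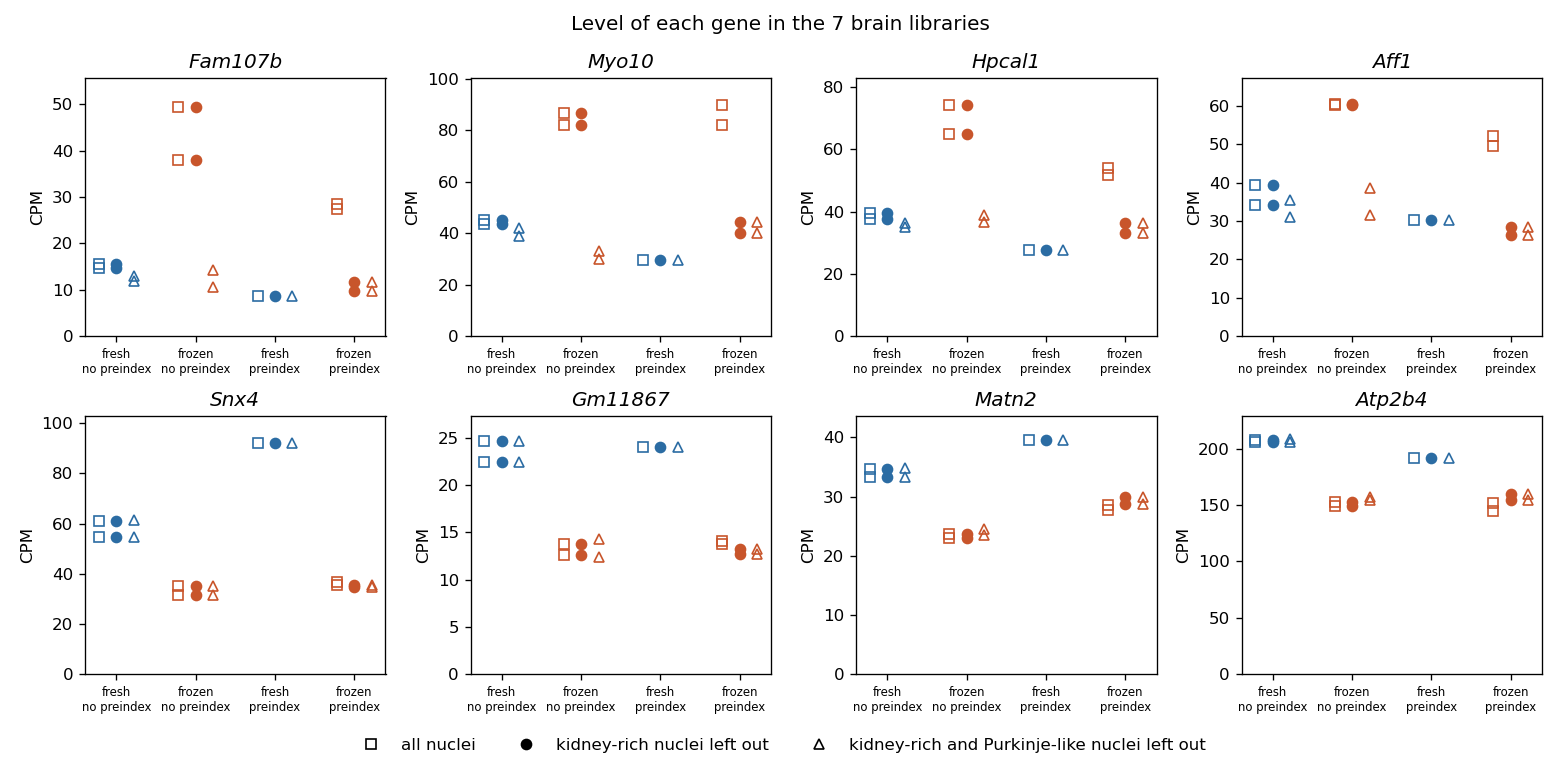
Level of each of the 8 genes (CPM) in the 7 brain libraries, 1 panel per gene and 1 point per library, grouped by storage and primer; squares hold all nuclei, filled circles leave out kidney-rich nuclei and triangles leave out Purkinje-like nuclei too. In the filled circles Fam107b, Myo10, Hpcal1 and Aff1 are highest in the 2 frozen libraries without preindex, whereas Snx4, Gm11867, Matn2 and Atp2b4 are lower in all 4 frozen libraries.

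In this fit of 18852 genes with edgeR's quasi-likelihood test, 31 genes (0.164%) passed an adjusted p of 0.05 as higher in frozen brain and 37 (0.196%) as lower. Of the 8 genes, 2 were among the higher (Myo10 and Hpcal1) and 4 among the lower, which is a property of their choice. Over all genes, 1.56% had all 4 frozen libraries above all 3 fresh ones, with 0 of the 8 genes among them, and 4.89% had them below, with Snx4, Gm11867, Matn2 and Atp2b4 among them.

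The kinds of nuclei were then separated by clustering, with the 8 genes left out of the clustering genes. Of 29 clusters, those that met their markers are named with the suffix like, and the others are named by a leading gene. Purkinje-like nuclei formed 1 cluster of 34 nuclei, 0.316% of the nuclei and 0.535% of the UFIs without kidney-rich nuclei. All 5 Purkinje markers were raised in it, with Car8 at 3823 and Itpr1, the inositol trisphosphate receptor of the endoplasmic reticulum, at 14684 CPM. Per library there were 1 and 6 Purkinje-like nuclei in fresh and 14 and 13 in frozen brain without preindex, and 0 in all 3 preindex libraries, where a count of 0 allows a share of up to 0.0968% to 0.167%.

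In Purkinje-like nuclei Fam107b, Myo10, Hpcal1 and Aff1 stood above every other brain class, in fresh and frozen tissue alike. The level of Fam107b in these nuclei was 1603 and 707 in the fresh and 1064 and 842 in the frozen libraries without preindex. Myo10 was at 1828 and 1308 against 1565 and 1738, and Hpcal1 at 745 and 1283 against 997 and 1026. Aff1 was at 1670.3 and 1064 in fresh and at 811 and 797 in frozen Purkinje-like nuclei, so only for Aff1 did the groups not overlap, with frozen below fresh. The first fresh library rests on 1 nucleus, with 71 UFIs of Fam107b, 81 of Myo10, 33 of Hpcal1 and 74 of Aff1. Choosing genes by a frozen excess favours genes that are high in a class with more nuclei in the frozen libraries. That Fam107b, Myo10, Hpcal1 and Aff1 share this class, and high levels in kidney-rich nuclei, is therefore not independent of the choice.

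The signal was spread over the nuclei of the class. Of the 34 nuclei, 32 had a UFI of Fam107b, 33 of Myo10, 34 of Hpcal1 and 30 of Aff1, and 22, 29, 25 and 24 had at least 10. After every nucleus was thinned to 3000 UFIs, Fam107b was seen in 82.4% of Purkinje-like nuclei (exact 95% interval 65.5 to 93.2) against 1.23% of excitatory-like nuclei of cortex and hippocampus. For Myo10 the shares were 97.1% (84.7 to 99.9) and 5.50%, for Hpcal1 76.5% (58.8 to 89.3) and 6.73%, and for Aff1 79.4% (62.1 to 91.3) and 5.45%. Unthinned, they were 94.1%, 97.1%, 100% and 88.2% against 5.86%, 23.1%, 21.9% and 21.7%, at median depths of 26728.5 and 13465 UFIs per nucleus. Excitatory-like nuclei were among the lower classes, and other classes lay between. Thinned shares of the 4 genes, in the same order, were 46.9%, 75.7%, 54.6% and 61.9% in kidney-rich nuclei. In vascular-like nuclei they were 15.9%, 57.9%, 21.4% and 39.7%. Myo10 and Aff1 were also seen in 44.9% and 32.4% of astrocyte-like nuclei, and Hpcal1 in 37.5% of the 24 Chat-led nuclei. Intervals cover counting error only, and fragments with distinct identifiers can come from 1 transcript. The other 4 genes were not high there: pooled levels in Purkinje-like nuclei were 34.9 for Snx4, 14.8 for Gm11867, 2.12 for Matn2 and 15.9 for Atp2b4.

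**Figure D2:**
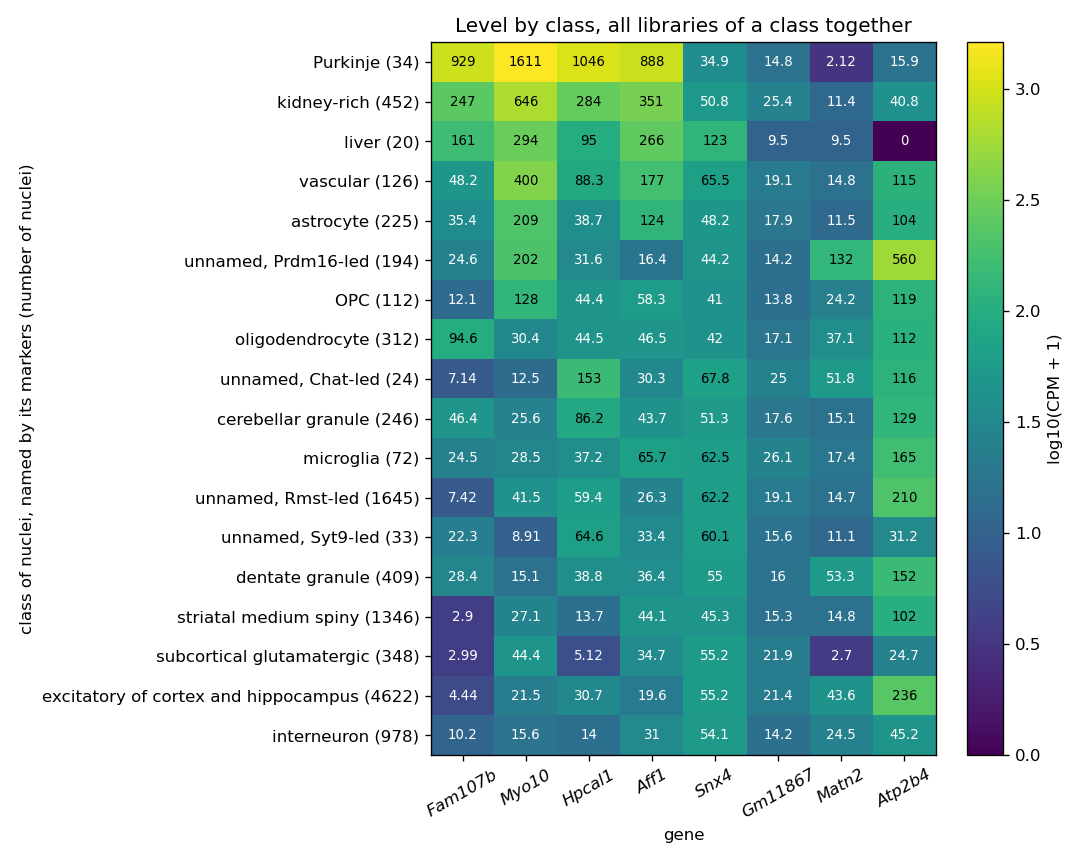
Level of each of the 8 genes (number and colour, CPM on a log10 scale) in each class of nuclei, with the libraries of a class pooled and the number of nuclei beside its name (the suffix like is left out). Purkinje-like nuclei and then kidney-rich nuclei are highest for Fam107b, Myo10, Hpcal1 and Aff1, and the Prdm16-led class for Matn2 and Atp2b4.

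Within the libraries without preindex, Purkinje-like nuclei supplied a term of 96.8% to 125% of the frozen excess of these 4 genes. The difference in the library level of Fam107b, frozen minus fresh, was 28.5 CPM, of which 28.9 (101%) came from Purkinje-like nuclei. For Hpcal1 it was 31.0, with 30.04 (96.9%) from them, and for Aff1 23.7, with 22.9 (96.8%). For Myo10 it was 39.9, with 49.7 (125%) from Purkinje-like nuclei and -5.54 from the Prdm16-led class, which had 0 nuclei in both frozen libraries without preindex. Cerebellar granule-like nuclei added 3.80 (12.3%) to the difference of Hpcal1 and 2.71 (11.4%) to that of Aff1.

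With preindex and all nuclei counted, kidney-rich nuclei took that place. The difference of Fam107b was then 19.3, of which 17.95 (93.2%) came from kidney-rich nuclei, and for Myo10 it was 56.3 with 46.7 (83.0%). For Hpcal1 it was 25.2 with 20.7 (82.1%), and for Aff1 20.5 with 25.5 (124%). In kidney-rich nuclei of the 2 libraries, Fam107b stood at 243 and 251, Myo10 at 597 and 690, Hpcal1 at 279 and 289 and Aff1 at 344 and 356. At the main clustering both kinds of nuclei occurred within neither primer. The kidney-rich nuclei were all in preindex libraries and the Purkinje-like nuclei all in libraries without preindex.

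**Figure D3:**
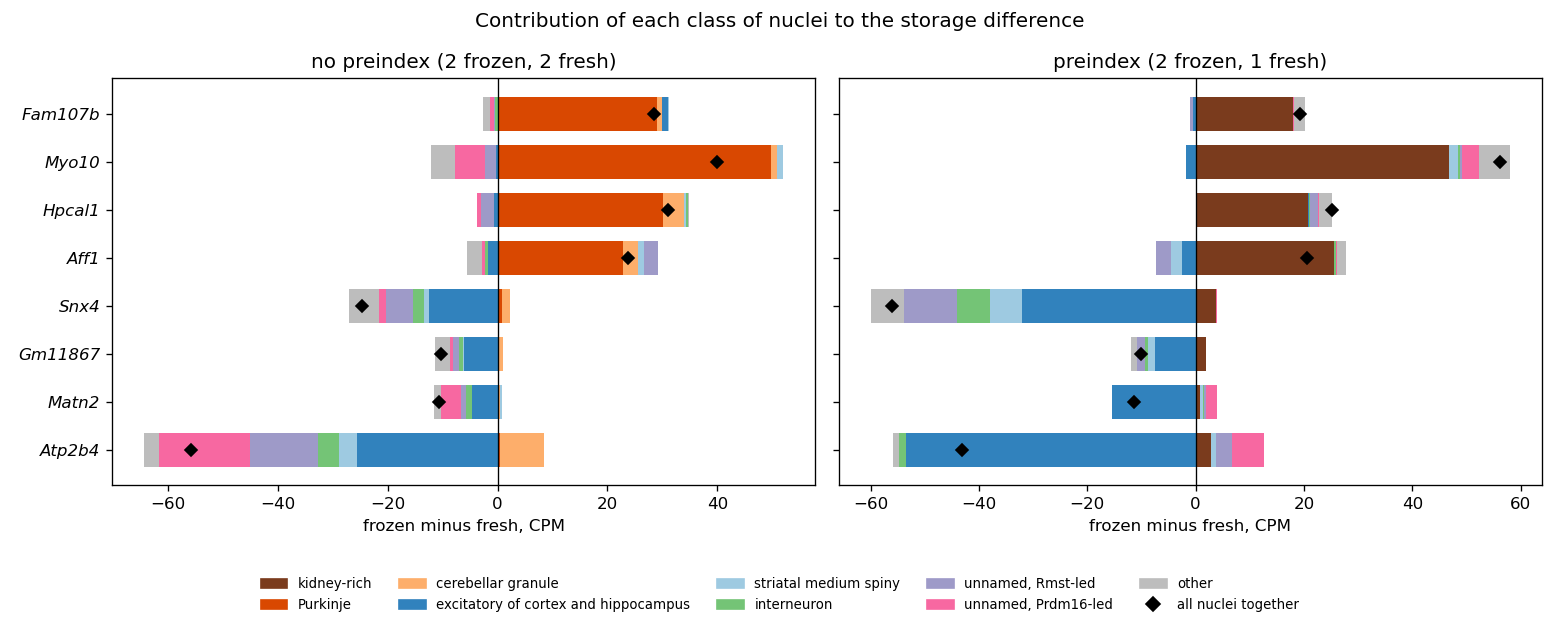
Frozen minus fresh difference in library level (CPM, all nuclei) split by the class of nuclei that supplied it, for each of the 8 genes and each primer, with a diamond for all nuclei together. The longest segment of Fam107b, Myo10, Hpcal1 and Aff1 is positive and comes from Purkinje-like nuclei without preindex and from kidney-rich nuclei with it, and that of Snx4 and Gm11867 is negative and comes from excitatory-like nuclei under both primers.

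Leaving out the 34 Purkinje-like nuclei as well, an alternative chosen after the data had been seen, changed the 4 genes and left the other 4 nearly as they were. Without preindex, Fam107b was then at 11.9 and 12.96 in fresh and 10.6 and 14.2 in frozen brain, and Aff1 at 31.1 and 35.4 against 31.5 and 38.6, so that the groups overlapped. Myo10 was at 42.0 and 38.8 in fresh and 29.9 and 33.1 in frozen brain, now lower in frozen. Hpcal1 was at 36.5 and 35.0 against 39.1 and 36.6, with a ratio of 1.06. The log2 fold changes over both primers were 0.17 ± 0.11 for Fam107b, 0.04 ± 0.14 for Myo10, 0.21 ± 0.07 for Hpcal1 and 0.01 ± 0.08 for Aff1 (SE). Those of Snx4, Gm11867, Matn2 and Atp2b4 were -1.04 ± 0.11, -0.83 ± 0.07, -0.45 ± 0.05 and -0.33 ± 0.04 (SE).

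The share of Purkinje-like nuclei did not itself choose the genes, but it is not independent of that choice. These nuclei supplied the largest term of the frozen excess of Fam107b, Myo10, Hpcal1 and Aff1 without preindex. Their share was 0.1% and 0.462% in fresh and 2.0% and 1.63% in frozen brain without preindex. The frozen libraries were higher by 1.53 percentage points, with p = 0.333 in a two-sided exact permutation test over 6 arrangements, the smallest p that 2 libraries against 2 allow. Over both primers, with storage permuted within primers over 18 arrangements, the difference was 0.766 points (exact permutation p = 0.333, adjusted p = 0.5 over 18 classes). Because the preindex libraries held no such nuclei, 0.333 is also the smallest p that this test allows for the Purkinje-like class. A class found under both primers could reach 0.0556. No class passed: the lowest p over the 18 classes was 0.0556, with an adjusted p of 0.25. In this design, a difference in share could not reach the usual threshold.

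Cerebellar granule signal moved with the Purkinje-like share. Cerebellar granule-like nuclei, the small and numerous input neurons of the cerebellar cortex, were 3.9% and 3.38% of nuclei in fresh and 10.4% and 11.3% in frozen brain without preindex, and 0 nuclei with preindex. The 5 markers that named the Purkinje-like class summed to 617 and 678 in fresh and 1275 and 1042 in frozen libraries without preindex. With preindex they summed to 619 to 652. Outside the Purkinje-like nuclei the sum without preindex was 580 and 599 in fresh and 529 and 541 in frozen libraries. Its frozen excess thus lay in those same nuclei and is no separate signal. Pcp2, 1 of these markers, was at 0.242 and 0.895 in fresh and at 6.04 and 4.21 in frozen libraries without preindex. With preindex Pcp2 was at 0.125 in fresh and at 0 in both frozen libraries. Of the 7 granule markers 1 was at 0 throughout, and their sum was 131 and 153 (fresh) and 236 and 241 (frozen) without preindex and 49.8 to 66.3 with it. Whether the tissue pieces held different amounts of cerebellum was not tested, and it cannot be told apart from the library in these data.

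Snx4, by contrast, was lower in frozen nuclei of nearly every class. Of the 9 classes with at least 10 nuclei in each library without preindex, all frozen libraries were below all fresh ones in 8 and overlapped in 1, with a median frozen to fresh ratio of 0.575. With preindex the count was 11 of 12 classes, with a median ratio of 0.394 against the 1 fresh library. Such counts of classes, here and below, are descriptions. Groups this small often fail to overlap without any difference, in either direction, and the share of all genes is not given by class. In excitatory-like nuclei Snx4 was at 55.2 and 60.5 in fresh and 28.6 and 38.8 in frozen libraries without preindex, and at 88.8 against 37.4 and 33.5 with it. In striatal medium spiny-like nuclei it was at 45.4 and 51.1 against 16.3 and 29.4, and at 85.8 against 28.3 and 31.3. These are neurons of different brain regions, and the fresh preindex library was the highest in both.

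Gm11867 showed the same breadth. It was lower in frozen nuclei of 7 of 9 classes without preindex and of 12 of 12 with it, with median ratios of 0.531 and 0.518, and in 0 classes was it higher. Some of these classes held few of its UFIs, with 31 in vascular-like and 33 in microglia-like nuclei over all 7 libraries. In excitatory-like nuclei Gm11867 was at 24.9 and 27.6 against 15.5 and 12.002 without preindex, and at 26.1 against 13.4 and 16.2 with it. Over the 6 classes with at least 20 nuclei in every library, the log2 fold change lay between -1.75 ± 0.46 in oligodendrocyte-like and -0.56 ± 0.15 in Rmst-led nuclei (SE), and that of Snx4 between -1.35 ± 0.24 in dentate granule-like and -0.82 ± 0.25 in oligodendrocyte-like nuclei.

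A split of each difference into changed shares of clusters and changed levels within clusters differed between the genes. A cluster's share was here its share of the UFIs, not of the nuclei. Each cluster's share and level were averaged over storage states to weigh the other term. Levels within clusters made up 99.3% of the Snx4 difference without preindex and 98.3% with it, and 96.2% and 97.4% of that of Gm11867. Of 26 clusters found in both states, Snx4 was lower in frozen nuclei in 24 without preindex and 25 with it, and Gm11867 in 25 and 24. For Fam107b, Myo10, Hpcal1 and Aff1 the shares of clusters made up 106%, 96.3%, 119% and 129% of the difference without preindex, and levels within clusters -5.54%, 3.69%, -19.2% and -29.3%. With preindex the differences of these 4 genes in this split were 2.24, 12.96, 7.23 and -2.99 CPM, and were not all of this kind. Shares then made up 99.2% for Fam107b and 36.2% for Myo10, and levels within clusters made up 63.8% for Myo10, 91.9% for Hpcal1 and 182% for Aff1. For Matn2, levels within clusters made up 83.5% of the difference without preindex and 75.9% with it, and for Atp2b4 51.6% and 118%. Matn2 and Atp2b4 were lower in frozen nuclei in 21 and 14 of the 26 clusters without preindex, and in 11 and 19 with it.

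Matn2 and Atp2b4 lay between these patterns. Their largest class term was excitatory-like nuclei, with -4.65 of -10.7 CPM for Matn2 without preindex and -14.1 of -10.2 with it, and -25.7 of -55.9 and -46.9 of -34.6 for Atp2b4. Both genes were highest in a class of 194 nuclei led by Prdm16, at pooled cluster levels of 132 for Matn2 and 560 for Atp2b4, apart from 1 excitatory-like cluster of 321 nuclei led by 4921539H07Rik where Matn2 was at 147. The Prdm16-led class held 32 and 31 nuclei in fresh and 0 and 0 in frozen libraries without preindex, which accounted for -3.51 (32.8%) of the Matn2 difference and -16.5 (29.5%) of that of Atp2b4. With preindex it held 31 fresh against 52 and 48 frozen nuclei, and its terms had the opposite sign, at 2.22 and 6.71.

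Within classes, Matn2 and Atp2b4 moved less evenly than Snx4 and Gm11867. Atp2b4 in excitatory-like nuclei was at 252 and 259.6 in fresh and 209.8 and 244 in frozen libraries without preindex, and at 259.5 against 203 and 191 with it. Its log2 fold change was -0.94 ± 0.25 in interneuron-like, -0.67 ± 0.26 in oligodendrocyte-like and -0.61 ± 0.15 in striatal medium spiny-like nuclei, but 0.23 ± 0.16 in dentate granule-like nuclei (SE). Matn2 ranged from -0.58 ± 0.20 in dentate granule-like to -0.01 ± 0.21 in striatal medium spiny-like nuclei (SE). All frozen libraries were below all fresh ones in 4 of 9 classes for Matn2 and 5 of 9 for Atp2b4 without preindex, and in 4 and 7 of 12 with it. They were above in 1 and 0 of 9 classes without preindex, and in 5 and 1 of 12 with it, where the median ratio of Matn2 was 1.09 and it was lower in frozen nuclei in 11 of 26 clusters.

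Fam107b, Myo10, Hpcal1 and Aff1 had no common direction inside the classes. Without preindex, frozen lay above fresh in 1, 1, 0 and 2 of the 9 classes and below in 4, 3, 2 and 2, in that order of genes. With preindex it lay above in 3, 9, 6 and 4 of 12 classes and below in 2, 1, 4 and 5. There, 2 frozen libraries often lie on the same side of 1 fresh library without any difference, so these counts are descriptions. The vascular-like class is among those above for Fam107b and Aff1 with preindex, and 32 of its nuclei in the frozen preindex libraries carried kidney markers below the limit. Without them Fam107b was at 42.9 in fresh and 23.8 and 63.3 in frozen vascular-like nuclei, which overlap, and Aff1 at 180.1 against 71.5 and 111, with frozen below fresh. Myo10 with preindex was the exception to an even split, though all these classes rest on the same 1 fresh library. The classes above for Myo10 included astrocyte-like nuclei, at 184 in fresh against 244 and 242 in frozen libraries. In astrocyte-like nuclei without preindex the order was the other way, at 252 and 188 in fresh against 152 and 143 in frozen libraries. Over the 6 fitted classes, the log2 fold change of Myo10 lay between -0.28 ± 0.28 and 0.62 ± 0.37, of Fam107b between -0.51 ± 0.30 and 0.51 ± 0.23, of Hpcal1 between -0.02 ± 0.22 and 0.68 ± 0.46 and of Aff1 between -0.51 ± 0.14 and 0.14 ± 0.16 (SE).

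**Figure D4:**
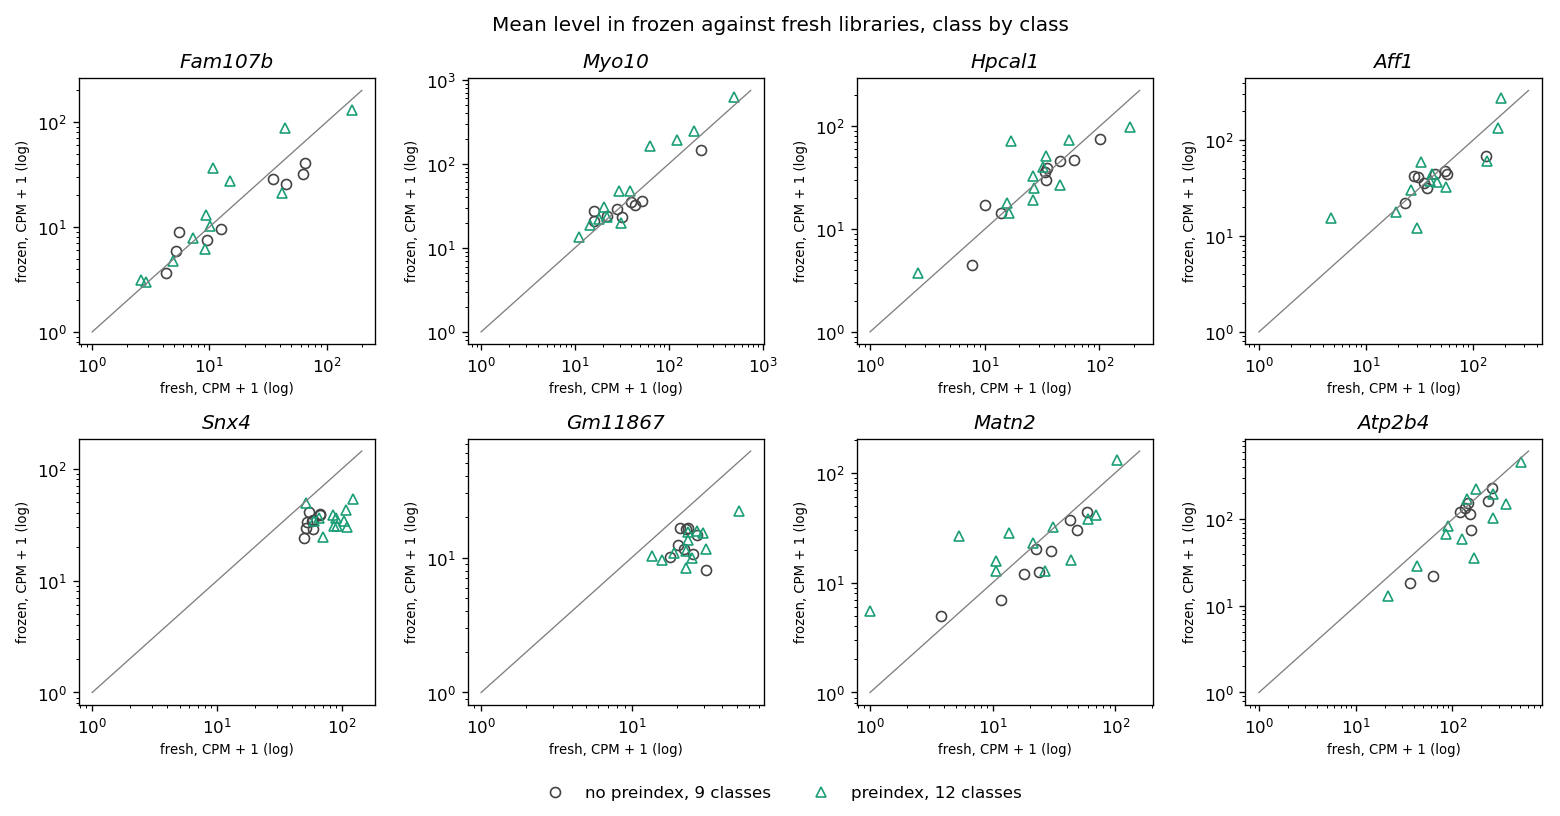
Mean level in frozen (vertical axis) against fresh (horizontal axis) libraries for each gene, in CPM plus 1 on log axes, with 1 mark per class of at least 10 nuclei in every library of a primer and a line where both are equal. Every mark of Snx4 and Gm11867 lies below the line, with median frozen to fresh ratios of 0.575 and 0.531 without preindex, while the marks of Fam107b, Myo10, Hpcal1 and Aff1 scatter on both sides of it.

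Levels by class were ordered for each gene over the libraries with at least 5 nuclei of a class, for classes with 3 or more such libraries. After Purkinje-like nuclei came oligodendrocyte-like nuclei for Fam107b (mean over libraries 89.8), and vascular-like nuclei for Myo10 (392), Hpcal1 (90.9) and Aff1 (173). For Hpcal1, cerebellar granule-like nuclei followed closely (87.5). In the 4 libraries where both were compared, vascular-like minus granule-like nuclei averaged -23.8. Without the 32 vascular-like nuclei that carried kidney markers, pooled Hpcal1 was at 76.3 in that class, against 86.2 in cerebellar granule-like nuclei. Pooled Aff1 was then at 133, against 124 in astrocyte-like nuclei. The Chat-led class, 24 nuclei with too few per library to enter the order, had Hpcal1 at a pooled level of 153. Microglia-like nuclei led for Gm11867 (26.7), the Syt9-led class for Snx4 (69.6) and the Prdm16-led class for Matn2 (128) and Atp2b4 (546). For Snx4, vascular-like nuclei came next (61.0), and in the 3 libraries with both, Syt9-led minus vascular-like nuclei averaged -5.54. The leading class of Snx4 also changed with the setting, to vascular-like nuclei at 20 principal components. Of 109 pairs of neighbours in these orders, 0 passed an adjusted p of 0.05 in two-sided exact sign-flip permutation tests over libraries. In the same tests 11 had an unadjusted p below it. The smallest p that the test allows is 0.0156 with 7 libraries and 0.25 with 3, before adjustment over the 109 pairs. It could therefore hardly separate neighbours, and the lack of calls does not show that their levels were alike. The lowest p was 0.0156 and the lowest adjusted p 0.284. Purkinje-like nuclei entered with 3 libraries only. For Fam107b, Myo10, Hpcal1 and Aff1 they were above the next class in each of the 3.

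Over the 29 clusters, Fam107b, Myo10, Hpcal1 and Aff1 were correlated with each other at Pearson's r of 0.54 to 0.74 on log2 levels, and Matn2 and Atp2b4 at 0.47. The clusters share libraries and depth, the choice of genes favoured a shared class, and the figures are descriptions. The 2 genes most like each were Bcar1 (0.84) and Zfp740 (0.83) for Fam107b, Car8 (0.79) and Fem1c (0.77) for Myo10, Heatr5a (0.78) and B3galnt2 (0.76) for Hpcal1, and Rbm19 (0.86) and Malat1 (0.85) for Aff1. They were Ulk2 (0.84) and Gm42826 (0.83) for Snx4, Mgat5 (0.75) and Sun1 (0.70) for Gm11867, Dip2c (0.73) and Arhgap39 (0.69) for Matn2, and Hpcal4 (0.85) and Pfn2 (0.85) for Atp2b4. These were the highest of 7908 genes compared.

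The primer contrast did not itself choose the genes and was tested. Its p-values are still not independent of the choice, which counted in kidney-rich nuclei that all lay in preindex libraries. With preindex, Fam107b (log2 fold change -1.41 ± 0.22, adjusted p = 0.0028), Myo10 (-0.70 ± 0.09, adjusted p = 0.0011), Hpcal1 (-0.65 ± 0.11, adjusted p = 0.0037) and Aff1 (-0.64 ± 0.16, adjusted p = 0.0189) were lower by edgeR's quasi-likelihood test with Benjamini-Hochberg adjustment (errors are SE). Matn2 (0.42 ± 0.06, adjusted p = 0.0011) and Snx4 (0.48 ± 0.11, adjusted p = 0.0180) were higher in the same test. Atp2b4 (0.12 ± 0.04, adjusted p = 0.0979) and Gm11867 (0.14 ± 0.07, adjusted p = 0.200) did not pass it. So 2 of 8 were higher and 4 lower, where 10.1% and 9.08% of all genes were. The call of Aff1 was lost without any 1 of the 4 frozen libraries (adjusted p 0.0573 to 0.0725), and that of Snx4 without fresh no-preindex library 2 (0.0550) or the fresh preindex library (0.117). With kidney-rich nuclei kept, as when the genes were chosen, the calls of Myo10 (adjusted p = 0.451), Aff1 (0.0805) and Snx4 (0.0528) were lost. The primer log2 fold change was then -0.63 for Fam107b, -0.13 for Myo10, -0.35 for Hpcal1 and -0.18 for Aff1.

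When Purkinje-like nuclei were left out, all 4 lower calls were lost. Fam107b was then at -0.22 ± 0.11 (adjusted p = 0.202), Myo10 at 0.19 ± 0.14 (adjusted p = 0.410), Hpcal1 at -0.09 ± 0.07 (adjusted p = 0.434) and Aff1 at -0.13 ± 0.08 (adjusted p = 0.302) in edgeR's quasi-likelihood test. Matn2 (0.40 ± 0.06, adjusted p = 0.0013) and Snx4 (0.48 ± 0.11, adjusted p = 0.0161) remained higher with preindex. That is 2 of 8 higher and 0 lower, where 10.2% and 8.5% of all genes were.

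Whether the storage difference itself differed between the primers was fitted as an interaction, in which a negative value means a lower frozen to fresh ratio with preindex. It was -1.22 ± 0.20 for Fam107b, -0.45 ± 0.10 for Myo10, -0.55 ± 0.12 for Hpcal1, -0.90 ± 0.11 for Aff1 and -0.64 ± 0.10 for Snx4 (SE). By edgeR's quasi-likelihood test 5 of the 8 genes were past the 0.05 threshold after adjustment, as were 8.29% of all genes. The count is not independent of the choice of genes, which was made with the kidney-rich nuclei of the frozen preindex libraries counted in. With those nuclei kept, the interaction was 0.10 ± 0.18 for Fam107b, 0.52 ± 0.10 for Myo10, 0.0017 ± 0.11 for Hpcal1, -0.06 ± 0.10 for Aff1 and -0.65 ± 0.10 for Snx4 (SE), so that the first 4 were lost or turned and that of Snx4 was not. Every interaction rests on the 1 fresh preindex library and cannot be fitted without it, and that of Myo10 missed the threshold without frozen preindex library 1, with DESeq2 and with a kidney limit of 30 UFIs per 10000.

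Without Purkinje-like nuclei 2 interactions passed the same threshold, as did 7.46% of all genes. Snx4 was at -0.65 ± 0.10 (SE). Myo10 changed sign to 0.82 ± 0.11 (SE), its library level being lower in frozen brain without preindex and higher with it once these nuclei were gone. This need not be a change inside nuclei. Over all clusters without preindex, levels within clusters gave 1.54 CPM of its difference, and it was lower in 12 of 26 clusters. The Prdm16-led class, absent from both frozen libraries without preindex, supplied -5.54 CPM. Fam107b, Hpcal1 and Aff1 had interactions of 0.25, 0.21 and -0.28 that did not pass.

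Relatives of the 8 genes were counted from 8 lists. Of their 81 tested genes, 0 passed for storage with edgeR, 12 had an unadjusted p below 0.05, and 1 (Kcnip1, a potassium channel interacting protein) passed with DESeq2. Without the fresh preindex library 6 passed, as did 861 genes in all. For the primer 20 of the 81 passed, 11 higher and 9 lower with preindex, where 10.1% and 9.08% of all genes did. Among 21 unconventional myosins 2 were higher and 3 lower, with Myo15 at -0.65 and Myo3b at 0.48, and among 10 neuronal calcium sensors 3 were higher and 2 lower, with Kcnip2 at 0.52. Of 12 genes of the AF4 and elongation complex list 4 were higher and 1 lower, with Aff3 at 0.42 and the kinase Cdk9 at -0.39. Of 29 sorting nexins 1 was higher (Snx3, 0.26), and of 2 matrilins and of Fam107a 0 passed.

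The calcium pumps held the largest primer difference among the relatives. Atp2a3, a pump of the endoplasmic reticulum, was at 3.11 and 5.16 in fresh and 24.8 and 15.7 in frozen libraries without preindex, and at 0.782 to 1.18 with it. Its log2 fold change was -3.39 ± 0.44 for the primer (adjusted p = 0.0010) and 1.79 ± 0.41 for storage (adjusted p = 0.113) by edgeR's quasi-likelihood test. The libraries with high Atp2a3 were those with Purkinje-like nuclei. Without these nuclei its log2 fold change was -0.91 ± 0.25 for the primer (adjusted p = 0.0324) and 0.10 ± 0.25 for storage (adjusted p = 0.929) in the same test. Among the relatives of Atp2b4 in the plasma membrane, Atp2b3 was lower (-0.26, adjusted p = 0.0062) and Atp2b1 higher (0.26, adjusted p = 0.0040) with preindex in the same test, and neither passed for storage.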

How the data were processed

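Nuclei of fresh and frozen mouse brain were sequenced by snHH-seq in 7 libraries. The deposited values are raw UFI counts per gene and nucleus. The authors trimmed reads with Cutadapt, chose barcodes with UMI-tools at a manual read minimum, aligned with STAR, kept unique reads, assigned them to whole genes with featureCounts and counted UFIs with UMI-tools. The submitters' notes list human and mouse builds, the study describes UFIs as strand specific, and the strand option of the gene counting step is not given in the sources used here. Groups were taken from sample titles. Total UFIs per library limit the precision of every level.

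The 8 genes, the marker lists and the lists of relatives were chosen with earlier results of these data known. Clustering used the 2000 most variable genes without the 8, 40 components of a principal component analysis, 10 nearest neighbours and Leiden partitioning (resolution 0.4; Scanpy 1.11.5, leidenalg 0.10.2). Doublets were not removed. A cluster was named when at least 3 markers and at least 50% of a list exceeded the average over other clusters by 2-fold (0.1 UFIs per 10000 added) and at least 1 was among its top 10 genes. Excitatory-like clusters needed 4 of their 7 markers at 2-fold above the medium spiny and interneuron clusters, a rule set once the first clusters were known.

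UFIs were summed per library, and per class with at least 20 nuclei in every library. Genes were filtered with filterByExpr, scaled by TMM and tested with glmQLFTest in edgeR 4.0.16 (R 4.3.3) with storage and primer as terms, or with their interaction, after Benjamini-Hochberg adjustment over all genes. The fit was tested on simulated data. SE is the absolute log2 fold change over the root of F. DESeq2 1.42.0, upper-quartile scaling, no filter, a replicate block, other kidney limits of 5 and 30 UFIs per 10000, 20 principal components, a resolution of 1.2 and leaving out each library were alternatives. Leaving out Purkinje-like nuclei, or keeping only clusters with nuclei in all 7 libraries, was added after seeing the data. Other genes named are the 3 relatives per list with the largest change past an adjusted p of 0.05, of which some are shown, the 2 genes most like each of the 8 over clusters (log2 of CPM plus 1, genes of at least 10), markers and the kidney genes. Kcnip1 under DESeq2 falls under the first rule. Libraries of other experiments were not used here.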

Additional observations from a re-analysis of the deposited data

Results flagged for a closer look

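The storage by primer interaction of edgeR's quasi-likelihood test passed an adjusted p of 0.05 for 5 of the 8 genes, as it did for 8.29% of all genes. The count is not independent of the choice of genes, which was made with the kidney-rich nuclei of the frozen preindex libraries counted in. The interaction was -1.22 for Fam107b, -0.45 for Myo10, -0.55 for Hpcal1, -0.90 for Aff1 and -0.64 for Snx4 on the log2 scale, each negative, with a lower frozen to fresh ratio with preindex. For Fam107b, Myo10, Hpcal1 and Aff1 the libraries without preindex are the ones that hold the Purkinje-like nuclei, and without those nuclei the interaction of these 4 genes was 0.25, 0.82, 0.21 and -0.28. For Snx4 it was -0.65 without them. With kidney-rich nuclei kept, as when the genes were chosen, the interaction was 0.10 for Fam107b, 0.52 for Myo10, 0.0017 for Hpcal1, -0.06 for Aff1 and -0.65 for Snx4, so that only that of Snx4 was negative and past the threshold on both bases. The level of Snx4 in the fresh preindex library, 92.2 CPM, was the highest of the 7 libraries, and the interaction cannot be fitted without that library. No group of 4 or more libraries had a sample far from the others by Dixon's criterion in the level of any of the 8 genes.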

How the results depend on the processing

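The 8 genes were chosen by the storage contrast in these libraries, so a sign kept over refits of them is no support. The storage log2 fold change over both primers changed sign for none of the 8 over 17 settings. It ranged from 0.17 to 1.59 for Fam107b, 0.04 to 1.17 for Myo10, 0.18 to 0.89 for Hpcal1, 0.0040 to 0.76 for Aff1, -1.15 to -0.74 for Snx4, -0.88 to -0.80 for Gm11867, -0.52 to -0.40 for Matn2 and -0.42 to -0.30 for Atp2b4. The lowest values of Aff1 (0.0040 ± 0.08, only shared clusters) and Myo10 (0.04 ± 0.14, Purkinje-like nuclei left out) were smaller than their SE. Within a primer the direction did turn, as given above for Aff1 with preindex. Of all genes, 68 passed for storage, against 200 with DESeq2, 962 with no filter on low counts, 25 with the replicate block, 40 with kidney-rich nuclei kept, 44 with liver-rich nuclei left out, 23 with only shared clusters (chosen after seeing the data) and 18 (without frozen preindex library 1) to 861 (without the fresh preindex library) when 1 library was left out. For the primer 3614 genes passed, against 2207 to 3938 with 1 library left out and 2604 with the replicate block. For the interaction 1562 passed, against 654 with DESeq2, 3168 with kidney-rich nuclei kept, 897 to 1576 with 1 library left out and 1270 with the block. Within classes 136 calls were made, against 828 with no filter, 64 to 443 with 1 library left out and 130 with the block. Calls of relatives for the primer were 20, and 13 to 26 with 1 library left out.

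With kidney-rich nuclei kept, without Purkinje-like nuclei and with only shared clusters, in that order, the interaction was 0.10, 0.25 and 0.38 for Fam107b, 0.52, 0.82 and 0.55 for Myo10, and 0.0017, 0.21 and 0.29 for Hpcal1. The primer log2 fold change of Myo10 was 0.19 without Purkinje-like nuclei and 0.13 with only shared clusters, and that of Hpcal1 was 0.027 with only shared clusters. The cause was not tested beyond the choice of nuclei. The difference in Purkinje-like share was 0.766 points, 1.45 at a resolution of 1.2, and 0.672 to 1.53 with 1 library left out. At a resolution of 1.2 the two-sided exact permutation test gave p = 0.167. That value cannot arise when every preindex library holds 0 such nuclei. At that finer resolution some preindex nuclei therefore also fell in the class named Purkinje-like. Replicate numbers did not pair the libraries, with correlations of 0.040, -0.024 and -0.0063 between same-numbered deviations. The 34 Purkinje-like nuclei, 1 of them in the first fresh library, and the 1 fresh preindex library limit the precision.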

Other observations

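Vascular-like nuclei, which carry Myo10 and Aff1 at the highest level after Purkinje-like nuclei among the brain classes, also held 32 nuclei below the kidney limit in which kidney markers stood out at a finer clustering. All 32 lay in the frozen preindex libraries, 20 in the first and 12 in the second, with 26.3 UFIs per 10000 on the kidney marker list. In them Fam107b was at 121, Myo10 at 509, Hpcal1 at 153 and Aff1 at 415 CPM. In the other vascular-like nuclei these genes were at 34.5, 379, 76.3 and 133. This count was made after the data had been seen. Matn2, which lay above fresh in frozen vascular-like nuclei with preindex, overlapped without them, at 4.29 in fresh against 0 and 15.8 in frozen libraries. These levels rest on very few UFIs, as Matn2 had 24 in all vascular-like nuclei together.

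Oligodendrocyte-like nuclei, the myelinating cells, carried Fam107b at the highest level after Purkinje-like nuclei among the ordered brain classes. The level was 49.4 and 78.7 in fresh and 45.5 and 34.2 in frozen libraries without preindex, and 165 in fresh against 84.7 and 171 in frozen libraries with preindex. The groups did not overlap without preindex, with frozen lower, and overlapped with it.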
